A study of Bubalus bubalis with 6 samples.

Results

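The genes described here were 10 of the 24616 genes listed for muscle stem cells of the water buffalo: vimentin (VIM), desmin (DES), nestin (NES), synemin (SYNM), syncoilin (SYNC), the lamins LMNA, LMNB1 and LMNB2, and the keratins KRT8 and KRT18. They were picked by gene symbol as a set of intermediate filament and lamin genes, and all 10 were in the table. RNA-seq counts were compared between 3 samples of muscle stem cells kept in growth medium (GM) and 3 samples in differentiation medium (DM). The cells, called MuSCs, were isolated from fetal longissimus muscle by digestion with type I collagenase and trypsin, and no sorting step is described in the methods read here. GM was high-glucose DMEM with fetal bovine serum, and DM was DMEM with a low amount of horse serum, given once cells had nearly filled the dish. The growth medium also held penicillin and streptomycin, and no transgene or other drug is named for either group. The labels give no time in DM: the methods read here allow up to 4 days, while the results of the study speak of the fifth day, so the time behind these samples is not certain. The labels also do not say whether the 3 samples of a group were separate cultures, so the p-values measure the spread between these samples, which may be technical.

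Intermediate filaments are the rope-like protein fibres that give a cell its resistance to stretching. Vimentin and nestin are plentiful in proliferating muscle progenitors, while desmin is the filament of the mature fibre, where it ties the Z-discs of neighbouring myofibrils to each other and to the membrane, nuclei and mitochondria. Synemin and syncoilin are partners of desmin that do not build long filaments on their own. Lamins are the nuclear members of the family and line the inside of the nuclear envelope: LMNA encodes the A-type lamins A and C, and LMNB1 and LMNB2 encode the B-type lamins. Keratins 8 and 18 pair with each other, and are best known from simple epithelia, although they also occur at low level in muscle.

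Gene counts ranged from 35615864 to 40305237 per sample. Genes with at least 10 counts over the 6 samples were tested with edgeR's quasi-likelihood test. A gene was called, and is said below to have risen or fallen, when its adjusted p was under 0.05 and its absolute log2 fold change above 1. Levels are given as CPM, the counts of a gene scaled to a common total, on TMM-scaled library sizes for 1 gene across samples, and as RPKM, which takes out gene length, wherever genes are set beside each other. DM replicate 3 stood apart from the other DM samples: chi-square per degree of freedom over all genes was 41.4 and 40.5 against DM replicates 1 and 2, 11.7 between those, and 6.22 to 10.6 between GM samples. Results that rest on it are given with and without it. RNA came from whole cultures, so fewer cells of a kind and less RNA per cell cannot be told apart.

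In DM, the B-type lamins LMNB1 and LMNB2 and the progenitor filament NES fell, while the keratins KRT8 and KRT18 rose from almost no counts to a few. LMNB1 was 4.15-fold and LMNB2 3.79-fold lower in DM than in GM, and NES was 2.10-fold lower. The 5 other genes, VIM, DES, SYNM, SYNC and LMNA, did not pass both thresholds. Of the 10 genes, 5 were called, beside 25.3% of the 15576 genes tested. The 2 rises stood beside 15.0% of all genes called higher in DM, and the 3 falls beside 10.3% called lower. Both rises were keratins that passed the filter of 10 counts only through their DM counts, so that they had to differ, and nothing is read from the count of rises or from the 5 calls of 10. Samples of GM and DM were fully separate in 7 of the 10 genes, and in 68.8% of all genes tested. The median log2 fold change was -0.13 over the 10 genes, the keratins included, and 0.03 over all genes tested. The same shares of all genes, 15.0% called higher and 10.3% called lower, are the background for the counts in the lists below.

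**Figure D1:**
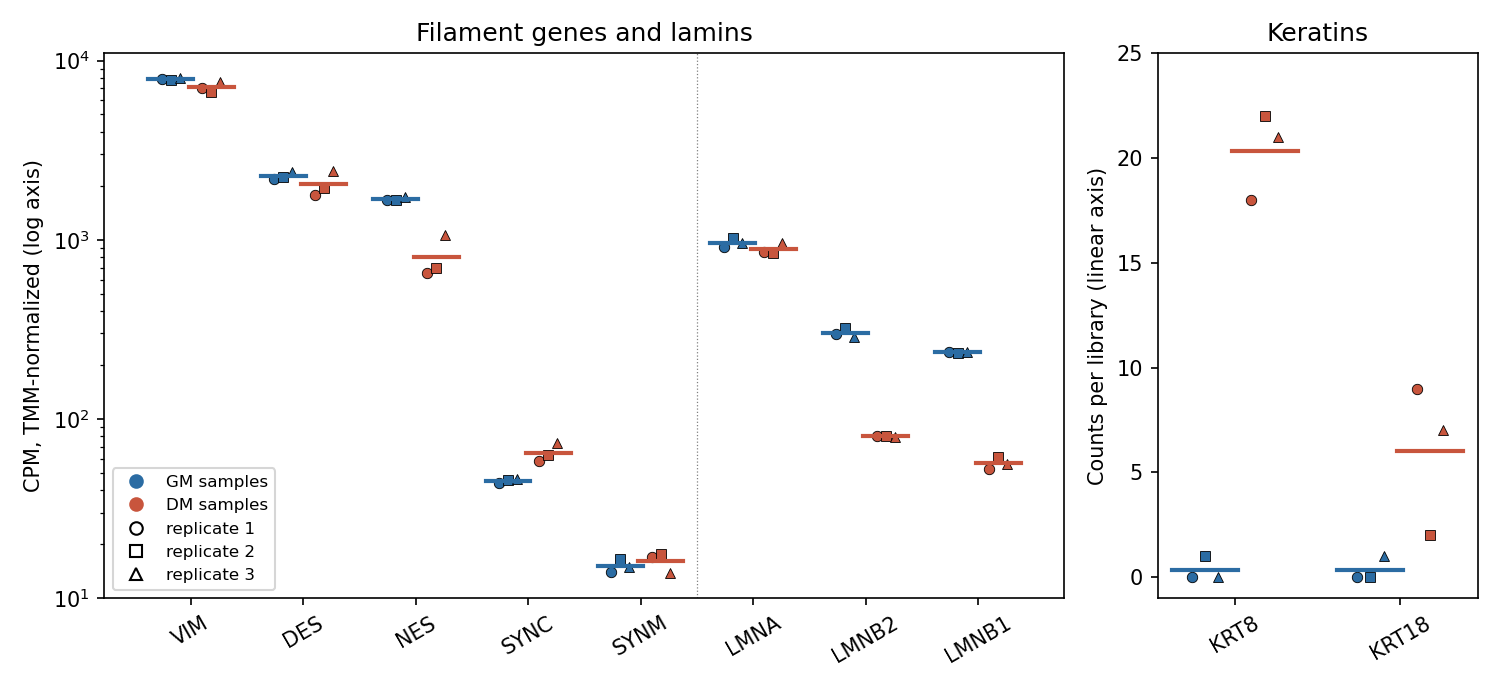
Level of each gene in every sample, in CPM on a log axis for the filament genes and lamins and in counts per library on a linear axis for the keratins, with 1 point per sample (blue for GM, red for DM, shape for the replicate) and the group mean as a line. LMNB1, LMNB2 and NES sat lower in all 3 DM samples than in all 3 GM samples, KRT8 and KRT18 higher, and DES, SYNM and LMNA overlapped.

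The order of the 10 genes by RPKM was alike in both groups: VIM, DES, LMNA, NES, LMNB2, LMNB1, SYNC, SYNM and then the keratins. VIM was among the most abundant of all listed genes, ranking 2 of 24616 in GM and 6 in DM by mean RPKM. DES ranked 78 in GM and 92 in DM. LMNA moved little, from rank 189 to 201, while LMNB1 went from 704 to 2875 and LMNB2 from 573 to 2124. LMNB1 and LMNB2, neighbours in this order, did not overlap over samples in either group. KRT8 and KRT18 had at most 1 count in any GM sample and could not be ordered there. Together the 10 genes took 1.38 to 1.42% of gene counts in GM and 1.0 to 1.19% in DM.

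**Figure D2:**
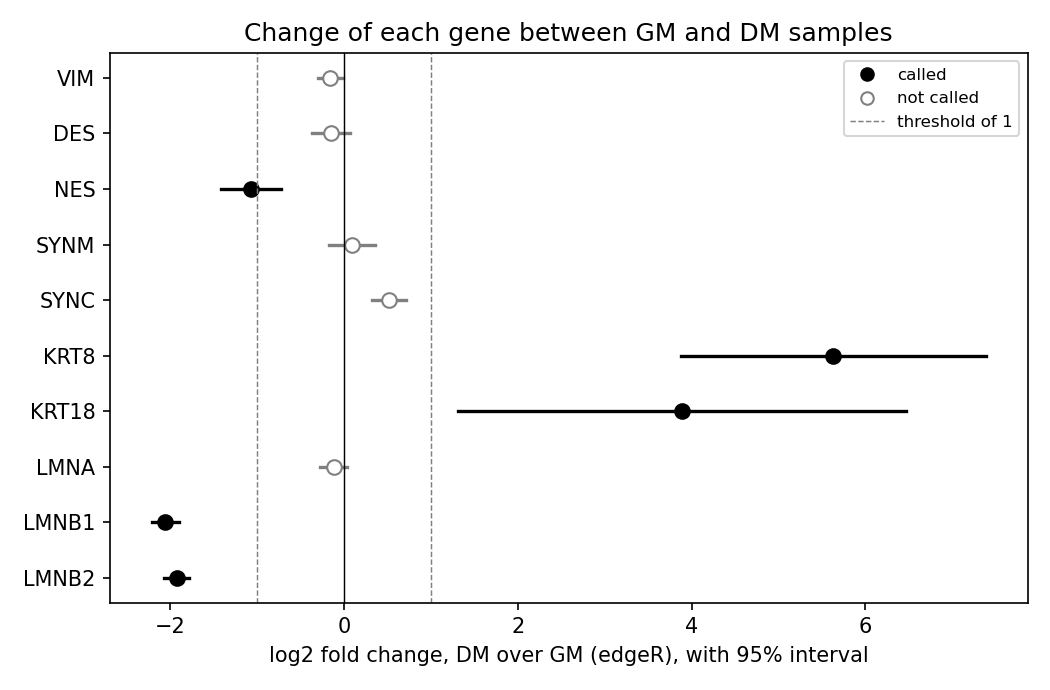
Log2 fold change of DM against GM for each of the 10 genes from edgeR, with its 95% confidence interval as a line, called genes filled and dashed lines at a log2 fold change of 1 in either direction. LMNB1 (-2.05), LMNB2 (-1.92) and NES (-1.07) lay below it, KRT8 (5.63) and KRT18 (3.89) above it, and the other genes between.

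Lamin B1 is a farnesylated lamin that stays bound to the inner nuclear membrane. LMNB1 measured 235, 234 and 238 CPM in the GM samples and 52.5, 61.5 and 56.3 CPM in the DM samples. Every DM sample was well below every GM sample, and the samples within each group lay close together. LMNB1 fell by 2.05 on the log2 scale (SE 0.070, 95% confidence interval -2.21 to -1.90, n = 3 per group, edgeR adjusted p = 6.17e-09). LMNB2, which encodes the other B-type lamin, measured 297, 323 and 288 CPM in GM and 80.2, 80.3 and 79.2 CPM in DM. The DM samples of LMNB2 were nearly equal, and here too the groups lay far apart. LMNB2 fell by 1.92 on the log2 scale (SE 0.065, 95% confidence interval -2.06 to -1.78, edgeR adjusted p = 5.88e-09). DM replicate 3 was not unusual in either gene, at 0.989 and 0.988 times the mean of the other DM samples. Across all genes tested, 1679 had a larger absolute log2 fold change than LMNB1 and 1896 a larger one than LMNB2.

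LMNA measured 912, 1024 and 958 CPM in GM and 858, 847 and 960.4 CPM in DM. The groups overlapped, since DM replicate 3 was above GM replicates 1 and 3. The log2 fold change was -0.12 (SE 0.071, 95% confidence interval -0.28 to 0.04, edgeR adjusted p = 0.171). Without DM replicate 3 it was -0.17 (edgeR adjusted p = 0.0291), and with library size alone -0.22 (edgeR adjusted p = 0.0204). All of these were under the fold threshold. The table lists a single LMNA transcript, so lamin A and lamin C could not be measured apart.

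Because a ratio of genes within a library does not depend on library scaling, the balance of lamin types was also taken as the ratio of LMNA to the sum of LMNB1 and LMNB2 in RPKM. This ratio was 1.46, 1.57 and 1.55 in the GM samples and 5.52, 5.10 and 6.05 in the DM samples. All DM samples stood above all GM samples, and the mean log2 ratio went from 0.61 ± 0.05 to 2.47 ± 0.12 (SD, n = 3 each), a 3.63-fold difference. The two-sided exact permutation test gave p = 0.1, the smallest p this test can give for 3 against 3 samples, and an adjusted p of 0.2 (Benjamini-Hochberg over the 4 ratios computed). LMNA made up 60.4% ± 0.907 of the summed RPKM of the 3 lamin genes in GM and 84.7% ± 1.10 in DM (SD, n = 3 each). LMNB1 went from 17.9% to 6.57% of that sum, and LMNB2 from 21.7% to 8.74%. The sum itself was 723 to 786 RPKM in GM and 436 to 493 RPKM in DM samples, so the larger share of LMNA came with a lower lamin total.

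**Figure D3:**
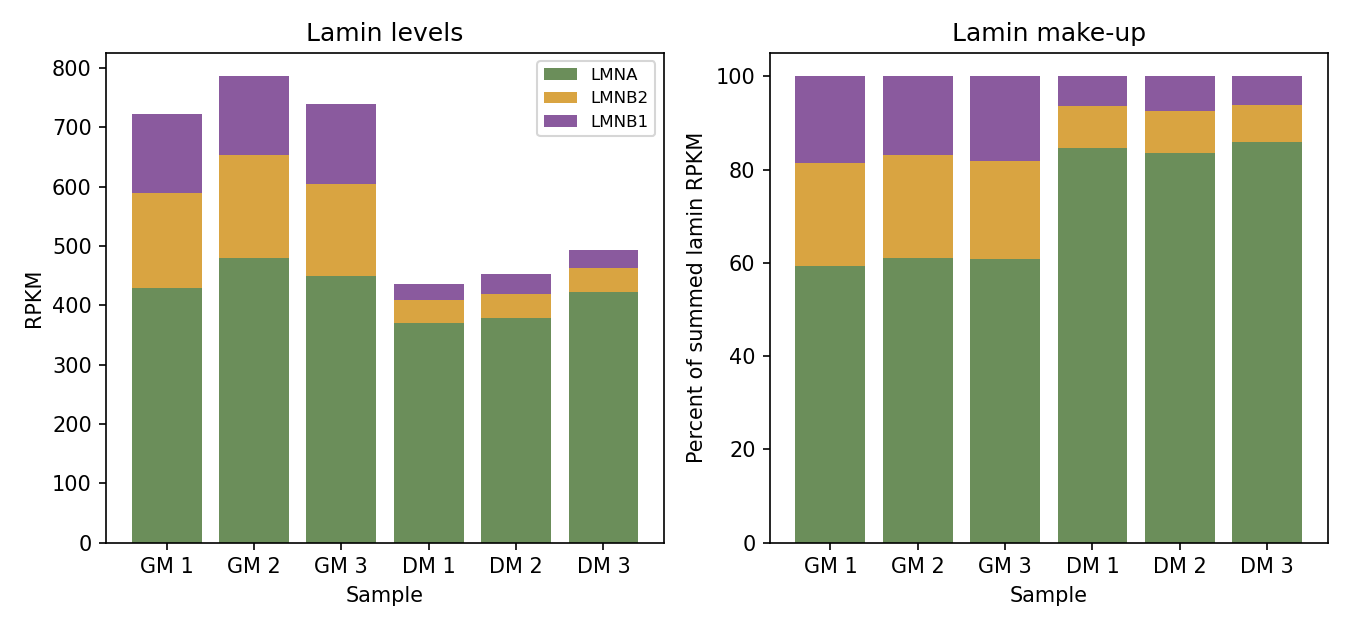
RPKM of LMNA, LMNB1 and LMNB2 in each sample as stacked bars from 0, on the left in RPKM and on the right as a percent of their sum. The bars summed to 723 to 786 RPKM in GM and 436 to 493 RPKM in DM, and LMNA filled a mean of 60.4% of the GM bars and 84.7% of the DM bars.

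Proliferation markers moved beside the B-type lamins. Of 20 such genes, 19 fell and 0 rose, with a median log2 fold change of -2.15, and their summed level was 4036 to 4068 CPM in GM and 922 to 1083 CPM in DM samples. MKI67, the Ki-67 antigen of cycling cells, went from 677 to 133 CPM (log2 fold change -2.34). The largest falls among them were those of RRM2, a subunit of ribonucleotide reductase (-3.05), and CDC20, an activator of the anaphase-promoting complex (-2.70), and the defining markers TOP2A (-1.58) and CCNB1 (-2.38) fell as well. Their part in the lamin and nestin results was not tested.

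Of the genes that encode nuclear envelope partners of lamins, 3 rose and 2 fell among 23 tested, with a median log2 fold change of -0.38. Of all genes, 15.0% rose and 10.3% fell. The signs were 17 lower and 6 higher in DM, called or not, beside 7592 lower and 7984 higher of all 15576 genes tested. The nesprins SYNE1 and SYNE3, outer membrane proteins that couple the nucleus to the cytoskeleton, rose: SYNE1 went from 148 to 317 CPM (log2 fold change 1.10) and SYNE3 from 7.78 to 19.1 CPM (1.29). The nuclear basket protein gene NUP153 fell from 114 to 48.6 CPM (-1.23), and TMEM201, which encodes an inner membrane protein, from 21.8 to 9.81 CPM (-1.15). LBR, the lamin B receptor, lay at the edge of the fold threshold with 50.0 CPM in GM and 25.1 CPM in DM (-0.99, edgeR adjusted p = 5.72e-06) and was not called, although it was called without GM replicate 2, GM replicate 3 or DM replicate 3 (-1.01, -1.01 and -1.09) and with library size alone (-1.09). With library size alone TMPO was called too (-1.04), and the list then had 2 rises and 4 falls. With TMM scaling TMPO, the gene of lamina-associated polypeptide 2 (-0.94), the inner membrane anchor SUN2 (-0.81) and emerin, EMD (-0.42), were also under the threshold. Of 5 genes linked to lamin maturation, 0 were called with edgeR or DESeq2, with a median of -0.09. RCE1, ICMT and NARF (-0.70, -0.42 and 0.37), 3 in all at an unadjusted p under 0.05, also passed the adjusted p with edgeR and missed only the fold threshold. ZMPSTE24, the protease that trims prelamin A, had a log2 fold change of -0.05, and FNTA, the shared alpha subunit of protein farnesyltransferase, one of -0.09.

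**Figure D4:**
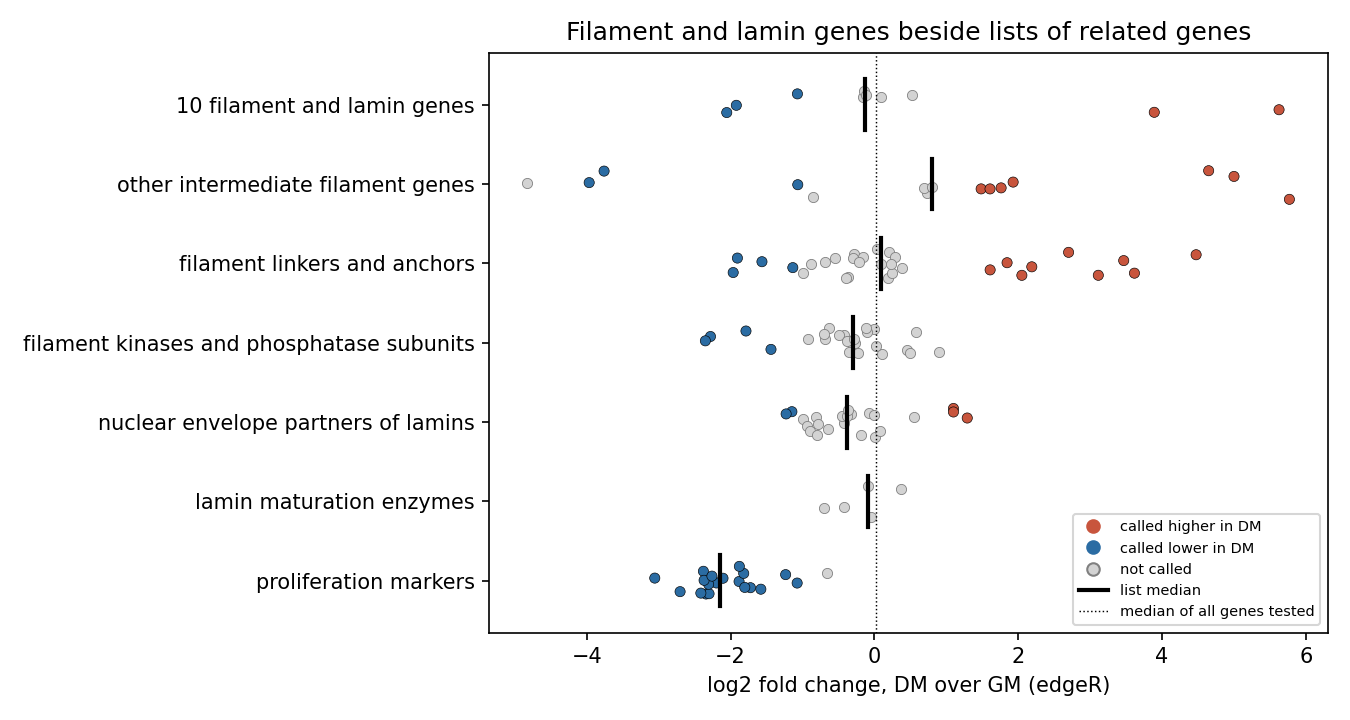
Log2 fold change of DM against GM from edgeR for each tested gene of the 10 and of 6 related lists, with called genes in red (higher in DM) or blue (lower), list medians as bars and the median of all genes tested as a dotted line. Proliferation markers lay to the lower side with a median of -2.15, the nuclear envelope partners around -0.38 and the linkers and anchors on both sides of 0.09.

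Vimentin is the most widespread filament protein of cultured mesenchymal cells and myoblasts. VIM measured 7908, 7832 and 8014 CPM in GM and 7070, 6663 and 7617 CPM in DM. All DM samples were below all GM samples, with DM replicate 3 closest to them. The log2 fold change was small, at -0.15 (SE 0.065, 95% confidence interval -0.30 to -0.01), and missed the adjusted p threshold (edgeR adjusted p = 0.0600). Without DM replicate 3 it was -0.20 (edgeR adjusted p = 0.00892), and with library size alone -0.25 (edgeR adjusted p = 0.00406). Both were still far from the fold threshold.

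Desmin is the muscle-specific member. DES measured 2189.5, 2243 and 2389 CPM in GM and 1787, 1954 and 2411 CPM in DM. The groups overlapped, since DM replicate 3 was the highest of all samples while DM replicates 1 and 2 were below every GM sample. The log2 fold change was -0.15 (SE 0.10, 95% confidence interval -0.37 to 0.07, edgeR adjusted p = 0.217). Without DM replicate 3 it was -0.27 (edgeR adjusted p = 0.000844), under the fold threshold. The interval excluded a change as large as the fold threshold in either direction. Over the same samples 11 of 16 skeletal muscle markers tested rose and 2 fell, with a median log2 fold change of 2.80 and a summed level of 954 to 1410 CPM in GM and 5008 to 6897 CPM in DM. MYH8, the perinatal myosin heavy chain, went from 2.01 to 292 CPM (log2 fold change 7.19), and CKM, the muscle creatine kinase, from 1.19 to 94.9 CPM (6.32).

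Nestin is a long filament protein of progenitor cells that co-assembles with vimentin or desmin. NES measured 1668, 1672 and 1735 CPM in GM and 650.2, 697 and 1069 CPM in DM. All DM samples were below all GM samples, but DM replicate 3 was 1.59 times the mean of the other DM samples, the largest such gap among the 8 genes other than the keratins. NES fell by 1.07 on the log2 scale (SE 0.15, 95% confidence interval -1.41 to -0.73, edgeR adjusted p = 0.000127). The fold lay near the threshold: it was -1.32 without DM replicate 3 (edgeR adjusted p = 7.35e-16), and -0.93 and -0.96 without DM replicates 1 and 2, where the call was lost. When the edgeR test was set against a 2-fold change, where 14.7% of all genes passed, the adjusted p was 0.550, so NES was lower in DM but not shown to be more than 2-fold lower.

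The make-up of the cytoplasmic filament mRNA was followed by ratios within each library. DES to VIM, as a log2 ratio of RPKM, was -2.08 ± 0.05 in GM and -2.08 ± 0.17 in DM (SD, n = 3 each), with overlapping samples and an exact two-sided permutation p of 1.0. NES to VIM was -3.55 ± 0.02 in GM and -4.50 ± 0.31 in DM without overlap, a log2 difference of -0.95 (exact two-sided permutation p = 0.1, 0.2 after adjustment over the 4 ratios). Shares were taken of the summed RPKM of VIM, DES, NES, SYNM, SYNC, KRT8 and KRT18. VIM took 75.3% in GM and 77.6% in DM, DES 17.9% and 18.4%, and NES 6.44% and 3.47%. That sum was 5801 to 5996 RPKM in GM and 4541 to 5290 RPKM in DM samples.

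Synemin bridges desmin filaments to costameres and also anchors protein kinase A. SYNM measured 13.9, 16.5 and 14.9 CPM in GM and 17.0, 17.7 and 13.7 CPM in DM. DM replicate 3 was the lowest of all samples and the other DM samples the highest. The log2 fold change was 0.09 (SE 0.12, 95% confidence interval -0.17 to 0.36, edgeR adjusted p = 0.512), and it was below 0 when only library size was used for scaling (-0.0038). Without DM replicate 3 it was 0.21 (edgeR adjusted p = 0.0797). SYNM to DES, as a log2 ratio of RPKM, was -8.43 ± 0.13 in GM and -8.19 ± 0.41 in DM (SD, n = 3 each), with overlap and an exact two-sided permutation p of 0.4 (0.533 adjusted). The overlap came from DM replicate 3, at -8.66: the other DM samples were at -7.91 and -7.99, above the highest GM sample at -8.28. Without it the log2 difference was 0.48 in place of 0.25.

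Syncoilin binds desmin and alpha-dystrobrevin at the muscle membrane. SYNC measured 43.8, 45.6 and 46.2 CPM in GM and 58.3, 62.8 and 73.8 CPM in DM. Every DM sample was above every GM sample, with DM replicate 3 the highest. The level in DM was 1.44 times that in GM, a log2 fold change of 0.52 (SE 0.089, 95% confidence interval 0.33 to 0.72, edgeR adjusted p = 0.000414), which passed the adjusted p but not the fold threshold. Without DM replicate 3 the log2 fold change was 0.43. DTNA, the gene of alpha-dystrobrevin, rose from 1.84 to 12.0 CPM (log2 fold change 2.70).

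KRT8 and KRT18 encode the partner keratins of simple epithelia and were barely detected. KRT8 had 0, 1 and 0 counts in the GM samples and 18, 22 and 21 counts in the DM samples. KRT18 had 0, 0 and 1 counts in GM and 9, 2 and 7 counts in DM. Counts were higher in every DM sample than in every GM sample for both genes, but a level of 3 counts, about 0.0745 CPM, marks the limit of detection in a library, and DM replicate 2 was below it for KRT18. Taking summed counts over library sizes, the DM to GM ratio was 68.7 for KRT8 (95% exact interval 11.9 to 2759) and 20.3 for KRT18 (3.20 to 845), and these intervals cover counting error only. Both genes were called higher, KRT8 with an edgeR adjusted p of 0.000106 and KRT18 with 0.0133, but each had 1 count in GM and entered the test only through DM. Their levels in DM were at most 0.348 RPKM for KRT8 and 0.172 RPKM for KRT18, under the 1 RPKM that the study asked of reliably expressed genes. Their fitted log2 fold changes depend on the prior count, as GM was near 0. The KRT18 call was lost without DM replicate 1 (edgeR adjusted p = 0.0524) and when the test was set against a 2-fold change (0.0705). For mRNA transcripts it was lost without DM replicate 1, GM replicate 1 or GM replicate 2 (edgeR adjusted p = 0.0543, 0.0519 and 0.0509). In DM the level was 0.567 ± 0.0341 CPM for KRT8 and 0.170 ± 0.107 CPM for KRT18 (SD, n = 3 each). A ratio of KRT8 to KRT18 per sample could not be formed because of the zeros in GM.

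Epithelial markers were set beside the keratins. EPCAM had 1 count in all, in GM replicate 3, and KRT5 had 0 counts in every sample, while CDH1, the gene of E-cadherin, fell from 34.8 to 7.75 CPM (log2 fold change -2.17). Of 7 epithelial markers tested, 2 rose and 1 fell, with a median of 1.76, and their summed level, most of it CDH1 in GM, was 33.4 to 39.2 CPM in GM and 11.2 to 19.3 CPM in DM. These counts were unstable: 0 rose and 2 fell without GM replicate 3, 1 rose and 1 fell with DESeq2, and filterByExpr, a stricter filter, left 2 genes with a median of -0.19. The rises were CLDN4, with 4, 2 and 2 counts in GM and 9, 8 and 10 in DM, and KRT19, whose change is the list median. CLDN4 and TP63, which was not called, passed the filter of 10 counts only through DM. Nothing is read from the rises or the median of this list. This list shares KRT5, KRT14, KRT19 and KRT7 with the list of other filament genes. Its part in the keratin result was not tested.

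Among 25 other intermediate filament genes, 21 were in the table and 15 were tested. Of these, 7 rose and 3 fell, with a median log2 fold change of 0.80, or 0.73 with genes at 0 in a whole group placed at their bound. KRT4 and KRT16, with 0 counts in GM, and BFSP2, with 1, are among the rises and passed the filter only through DM, and with filterByExpr 4 rose and 3 fell of 10 tested. KRT1, KRT3, KRT5 and KRT14 had no counts in any sample. The whole list summed to only 28.4 to 32.2 CPM in GM and 33.9 to 43.1 CPM in DM samples, far below VIM alone. IFFO1, a little-studied gene of the filament family, rose from 4.22 to 16.1 CPM (log2 fold change 1.93), and INA, the gene of the neuronal protein internexin alpha, from 1.84 to 5.62 CPM (1.61). NEFH, the heavy neurofilament gene, had 391, 450 and 344 counts in GM and 16, 13 and 38 counts in DM. NEFH fell in every DM sample, by 3.97 on the log2 scale. KRT80, a type II keratin, had 112, 158 and 119 counts in GM and 12, 10 and 3 counts in DM, and fell by 3.76. KRT19 was called higher (log2 fold change 1.76, edgeR adjusted p = 0.0204), with 54, 99 and 53 counts in GM and 73, 106 and 451 counts in DM. That call rested on DM replicate 3, without which the log2 fold change was 0.58 (edgeR adjusted p = 0.0551), and it was also lost without GM replicate 1 and without GM replicate 3.

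Filaments are anchored by plakins, dystrobrevins and integrins, and small heat shock proteins protect them. The list of linkers and anchors held all of these and some other muscle genes, so its counts are not of anchors alone. Of its 31 genes tested, 9 rose and 4 fell, beside 15.0% and 10.3% of all genes. The median was 0.09, and the summed level 7709 to 8168 CPM in GM and 6938 to 7297 CPM in DM. PKP1, with 0, 1 and 1 counts in GM and 8, 6 and 4 in DM, is among the rises and passed the filter only through DM. HSPB8, a small heat shock protein, rose from 3.06 to 68.0 CPM (log2 fold change 4.48), and CRYAB, the alpha-B crystallin that protects desmin, from 37.0 to 153 CPM (2.05). PPL, the plakin periplakin, rose from 7.17 to 88.1 CPM (3.62), and NEB, the nebulin of thin filaments, from 45.7 to 505 CPM (3.47). The other side of the list held ITGA7, the laminin receptor subunit of muscle, which fell from 253 to 64.8 CPM (-1.96), XIRP1, an actin-binding protein of muscle attachment sites, from 51.8 to 13.8 CPM (-1.91), and FLNC, the muscle filamin, from 1692 to 572 CPM (-1.56). PLEC, plectin, the main linker of desmin and vimentin, had 1717 CPM in GM and 1409 CPM in DM (-0.29, edgeR adjusted p = 0.00464) and was under the fold threshold. HSPB1 was likewise not called (0.24).

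Filaments are taken apart in mitosis by phosphorylation. Among 25 kinase and phosphatase subunit genes tested, 0 rose and 4 fell, with a median of -0.29 and a summed level of 3250 to 3262 CPM in GM and 2413 to 2492 CPM in DM. Of all genes, 15.0% rose and 10.3% fell. The 4 that fell in this list all encode mitotic kinases. PLK1 fell from 187 to 36.6 CPM (log2 fold change -2.35), AURKA from 45.2 to 9.29 CPM (-2.28), CDK1, which phosphorylates lamins and vimentin, by 1.79 and AURKB by 1.44. As with the B-type lamins, these falls came with those of the proliferation markers.

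In the deposited tables the 10 genes lie on 6 chromosomes, and positions are those of the tables, which name no genome build. KRT18 (chr5:27171925-27175575, minus strand) and KRT8 (chr5:27213750-27221177, plus strand) are 38.2 kb apart on opposite strands with no listed gene between them. NES (chr3:14208425-14215064) and LMNA (chr3:14696144-14715262) are 481 kb apart with 20 listed genes between, of which 17 were tested, 0 were called higher and 4 lower. LMNB2 (chr7:22428167-22445813) and LMNB1 (chr7:28414756-28465352) share a chromosome with 59 genes between them, 43 of them tested, 9 called higher and 6 lower. DES (chr2:108075460-108082534) and SYNC (chr2:121782950-121800918) share another, with 119 genes between. VIM is at chr13:31945012-31952941 and SYNM at chr21:7768429-7793372. Each of the 10 genes had a single mRNA transcript whose counts equalled those of the gene, and none overlapped another listed gene, so no isoform difference could be measured. The mRNA test called 5 of the 10 as well, beside 25.6% of all mRNA transcripts.

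The label of muscle stem cells was set against marker genes. PAX7 and MYF5, transcription factors of satellite cells and myoblasts, were present in all samples. MYF5 fell from 143 to 22.0 CPM (log2 fold change -2.70), PAX7 was at 18.5 CPM in GM and 9.78 CPM in DM (-0.92), and MYOD1 was at 32.5 and 60.5 CPM (0.90). The last 2 passed the adjusted p but not the fold threshold. PAX7 passed both without DM replicate 1 (-1.11) and with library size alone (-1.02), and MYOD1 without DM replicate 3 (1.14).

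Fibroblasts also carry much vimentin, and most of their markers were high in both groups. Of 11 fibroblast markers tested, 8 rose and 0 fell, with a median of 1.54, and the summed level was 35659 to 36412 CPM in GM and 98305 to 124235 CPM in DM. Most of that sum was COL1A1 (15288 CPM in GM and 44329 in DM), COL1A2 (10730 and 23421) and COL3A1 (8299 and 39253). PI16, with 2, 1 and 2 counts in GM and 8, 10 and 17 in DM, is among the rises and passed the filter only through DM. TCF21 had 0, 1 and 7 counts in GM and 0 in every DM sample, and was not tested. DCN, decorin, rose from 447 to 2311 CPM (2.37), FAP, the fibroblast activation protein, from 67.2 to 333 CPM (2.31) and LUM, lumican, from 159 to 374 CPM (1.24), while PDGFRA was at 575 and 859 CPM (0.58). Their part in the VIM and NES results was not tested.

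Smooth muscle cells and pericytes can carry desmin, vimentin and nestin. Of 11 of their markers, 3 rose and 0 fell, beside 15.0% and 10.3% of all genes. The median was 0.18, and the summed level 2801 to 2964 CPM in GM and 2815 to 3345 CPM in DM. ABCC9, a potassium channel subunit, rose from 2.01 to 48.6 CPM (log2 fold change 4.59) and PDGFRB from 69.8 to 239 CPM (1.78), and the defining markers ACTA2 (0.18), MYH11 (0.78) and CNN1 (-0.05) were not called. Among Schwann and glial markers, which mark other cells with nestin, 0 rose and 1 fell of 5 tested, with a median of -0.60 and a summed level of 328 to 374 CPM in GM and 187 to 267 CPM in DM. Nearly all of that sum was NCAM1, which myoblasts also express, with 350.2 CPM in GM and 231 CPM in DM (-0.60), and the gene that fell was NGFR, from 4.17 to 0.466 CPM. SOX10 had 5, 6 and 7 counts in GM and 2, 0 and 3 in DM, and S100B was not called (0.30).

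Of 9 endothelial markers tested, 1 rose and 3 fell, with a median of -0.47, and their sum was 13.6 to 15.8 CPM in GM and 14.2 to 24.3 CPM in DM. PECAM1 had at most 8 counts in a sample, and VWF fell from 1.18 to 0.443 CPM (-1.41). CDH5 had 32, 28 and 6 counts in GM and 1, 8 and 3 in DM and was called lower, a call lost without GM replicate 1 (-1.89), GM replicate 2 (-2.04) or DM replicate 1 (-1.82). Without these libraries 2 markers of the list were called in each case. Macrophage markers summed to 6.49 to 8.63 CPM in GM and 7.62 to 15.1 CPM in DM, with 1 risen and 1 fallen of 5 tested and a median of 0.12. PTPRC had at most 2 counts in a sample, CD14 rose (2.75) and CD68 fell (-1.04), the latter not without GM replicate 1 (-0.98), GM replicate 2 (-0.9995) or DM replicate 3 (-0.89). Adipocyte markers summed to 6.94 to 8.34 CPM in GM and 7.27 to 8.84 CPM in DM, with 2 risen and 1 fallen of 6 tested and a median of 1.0. FABP4, with 0, 1 and 1 counts in GM and 15, 16 and 13 in DM, is among the rises but passed the filter only through DM. The other rise was that of CIDEC (1.31). The gene that fell was PPARG, with 160, 191 and 172 counts in GM and 3, 14 and 18 in DM (-3.73). ADIPOQ had at most 14 and PLIN1 at most 21 counts in a sample, and neither was called. The part of these cells in the results above was not tested.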

How the data were processed

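Polyadenylated RNA of buffalo MuSCs was sequenced in 3 GM and 3 DM samples. The authors deposited raw counts per gene and per mRNA transcript, made from aligned reads (the methods name HISAT2), and RPKM values, which the authors scaled by the deposited gene length and the summed counts of a sample. The sources differ on that step: per the labels, the submitters' processing notes name Bowtie 0.12.2 and the mouse builds mm8 and mm9, while the rows carry cattle Ensembl identifiers and the methods name a buffalo genome. The counting tool is not given in the sources used here, nor is the use of strand. Lists of the authors' own comparison, with fold changes, p-values and q-values of features past their thresholds, were not used, nor was the table of non-coding transcripts. No sample column was left unmapped.

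Counts were tested in R 4.3.3 with edgeR 4.0.16 (TMM, glmQLFit and glmQLFTest, genes with at least 10 counts in total, Benjamini-Hochberg adjustment over all genes tested). The thresholds, an adjusted p under 0.05 and an absolute log2 fold change above 1, are those of the study, whose further limit of 1 RPKM in most samples was not applied here. TMM factors were 1.03 to 1.04 in GM and 0.948 to 0.983 in DM, where the 10 most abundant genes held 16.4 to 18.4% of counts against 8.14 to 8.59% in GM. A few very abundant genes can therefore lower the RPKM of others and their share of counts, since both rest on plain summed counts. TMM scaling offsets this in CPM: mean VIM went from 7918 to 7117 CPM, and from 4430 to 3720 RPKM. Sums and ranks by RPKM compared between GM and DM carry this limit. RPKM recomputed from the counts matched the deposited values. Ratios were tested by exact permutation over samples in Python 3.11.15 with scipy 1.17.1. The gene test was checked on simulated counts.

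The genes and lists were chosen with earlier results of these data known. In each list the text names the defining markers (the first 3, of which 1 glial marker is not reported here) and the 2 called genes with the largest rise and the 2 with the largest fall among those with a mean of at least 10 CPM. NEFH, KRT80, KRT19, INA, KRT1, KRT3, KRT14, KRT4, KRT16, BFSP2, NCAM1, NGFR, RCE1, ICMT, NARF, CRYAB, NEB, FLNC, PLEC, HSPB1, DTNA, LBR, TMPO, SUN2, EMD, ZMPSTE24, FNTA, AURKB and CDK1 were named after their values were seen. Alternatives were DESeq2 1.42.0, other scalings, filters and thresholds, protein-coding genes alone, the replicate number as a block, and each sample left out.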

Additional observations from a re-analysis of the deposited data

How the results depend on the processing

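The calls of LMNB1 and LMNB2 kept their direction and stayed past both thresholds in all 15 alternatives each. Log2 fold changes ran from -2.15 to -1.99 for LMNB1 and from -2.02 to -1.87 for LMNB2. KRT8 was also called in all 15, from 5.17 to 7.41, values that depend on the prior count. It entered the test only through its DM counts, so nothing is read from its stability. The number of the 10 genes called was 5, beside 25.3% of all genes. It was 3 in the test against a fold change of 2 (14.7% of all genes) and 6 with no minimum fold change (63.0%). With filterByExpr it was 4 of 9 tested (25.6% of all genes). Leaving out each sample gave 3 to 5 called for genes and for mRNA transcripts alike. The shares there were 23.7 to 26.0% of all genes and 24.5 to 26.5% of all mRNA transcripts. The number called was 3 without DM replicate 1, where NES and KRT18 were lost. It was 4 for mRNA transcripts without GM replicate 1 or 2, and 4 without DM replicate 2, where NES was lost. Over all genes, 9813 were called with no minimum fold change and 2293 in the test against a fold change of 2, against 3936. Leaving out samples gave 2 to 4 called endothelial markers 1 to 2 macrophage markers and 2 to 4 epithelial markers. The cause was not tested.

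With library size alone, SYNM turned to -0.0038 for genes and -0.077 for mRNA transcripts, and the median of all genes tested was -0.07, against 0.03. Over samples left out, ADIPOQ ranged from -0.12 (without DM replicate 3) to 1.19 and ZMPSTE24 from -0.14 to 0.043 (without DM replicate 1). The log2 difference of DES to VIM ranged from -0.0759 to 0.0866 over samples left out, and was above 0 without GM replicate 3 (0.024) and without DM replicate 1 (0.0866). The filter of filterByExpr dropped KRT18, so that it gave no value there.

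Samples of the same number did not deviate together, with correlations of -0.0105, -0.0467 and -0.00813 over genes. The check included genes with low counts and cannot exclude that samples of the same number were paired, which the labels do not say. With the replicate block, 3837 genes and 4094 mRNA transcripts were called, against 3936 and 4184, and the 10 genes still gave 5 calls. What these data can show is limited by 3 samples per group, and for KRT8 and KRT18 by counts near 0.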
